A study of Mus musculus with 30 samples.

Results

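The 8 genes described here, Park7, Pink1, Vps35, Fbxo7, Atp13a2, Scarb2, Tmem175 and Gak, are genes other than Lrrk2 that carry inherited or common risk of Parkinson's disease. They were taken by name, by a rule that uses no measured value, though earlier results of these data were known when it was set, and are 8 of 38031 genes obtained by summing the deposited transcript counts per gene. RNA was sequenced in bulk from primary microglia, the macrophages that reside in the brain, of C57BL/6 mice at postnatal day 21. The 30 libraries comprised Lrrk2-/- (KO) cells with α-synuclein fibrils (5 libraries), with LPS (4) and as controls (6), and wild-type (WT) cells with fibrils (4), with LPS (6) and as controls (5). LPS, from the outer membrane of bacteria, is sensed through Toll-like receptor 4, and α-synuclein forms the protein deposits of Parkinson's disease. Lrrk2, absent by design from all 3 KO groups, encodes a kinase that is itself linked to the disease. The sources used here do not give the fibril and LPS doses, the hours of treatment, the sex or the number of animals behind a library. Nor do they say that replicates were separate cultures, so the p-values measure the spread between samples, and that spread may be only technical.

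The products of these genes meet in the handling of lysosomes, mitochondria and membrane cargo. Scarb2 (also called LIMP-2) carries the enzyme glucocerebrosidase to the lysosome, Atp13a2 is a lysosomal pump that exports polyamines, and Tmem175 is an ion channel of the lysosomal membrane. Pink1 is a kinase that marks damaged mitochondria for removal, Fbxo7 is the substrate-binding subunit of a ubiquitin ligase, and Park7 (DJ-1) is a redox-sensitive protein that protects against oxidative damage. Vps35 is the core subunit of retromer, which returns receptors from endosomes, and Gak helps to strip clathrin from vesicles. Microglia take up extracellular α-synuclein and degrade it in lysosomes.

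Gene totals ranged from 8936310 to 35677005 counts per library, with a median of 20432234, and all 8 genes were among the 14346 that passed the filter on low counts. Lrrk2 lay between 0.731 and 4.68 CPM (counts scaled to a common library size) in KO libraries and between 6.87 and 16.7 CPM in WT libraries, with no overlap within a treatment. The summed level of 10 microglia markers was 3560 to 5644 CPM over the 30 libraries, and none of the 10 was at 0 in any library. The microglia sum was 3560 to 5310 CPM (median 3694) in KO fibril and 5194 to 5430 CPM (median 5332) in WT fibril libraries. For 6 markers of border and peripheral macrophages the sum was 1056 to 1238 CPM in KO fibril and 1367 to 1410 CPM in WT fibril libraries. With LPS it was 1183 to 1272 CPM in KO and 1320 to 1774 CPM in WT cells. In controls it was 1038 to 1476 CPM in KO and 1227 to 1587 CPM in WT cells. Up to 2 of these 6 were at 0 in a library. Markers of other brain cells differed between the groups. The summed level of 8 astrocyte markers was 49.6 to 234 CPM in KO fibril libraries and 15.6 to 21.1 CPM in WT fibril libraries. For 7 fibroblast and leptomeninges markers these ranges were 25.4 to 106 CPM in KO fibril and 1.95 to 2.54 CPM in WT fibril libraries, and for 9 oligodendrocyte lineage markers 56.5 to 220.1 CPM in KO fibril and 47.9 to 54.9 CPM in WT fibril libraries. At most 1 of the 8 astrocyte markers was at 0 in a KO fibril or WT fibril library. Of the fibroblast markers none was at 0 in KO fibril libraries and up to 2 were in WT fibril libraries, while of the oligodendrocyte markers up to 1 was at 0 in KO fibril and up to 4 in WT fibril libraries. Control libraries of WT cells spanned 21.2 to 168 CPM for the astrocyte list and 2.28 to 126 CPM for the fibroblast list. Both lowest values were those of WT control replicate 6, and the next lowest were 47.2 CPM (replicate 5) and 27.6 CPM (replicate 2). Every WT fibril library lay below every WT control for the astrocyte list, narrowly so for replicate 6. For the fibroblast list they lay below every WT control except replicate 6. A set of 7 libraries stood apart in RNA composition, total count or markers in an earlier analysis of these data (KO fibril replicate 5, KO control replicates 1, 4 and 6, WT LPS replicates 1 and 6 and WT control replicate 6), and the calls below are also given without them. In bulk RNA, fewer cells of a type and less RNA per cell cannot be told apart.

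**Figure D1:**
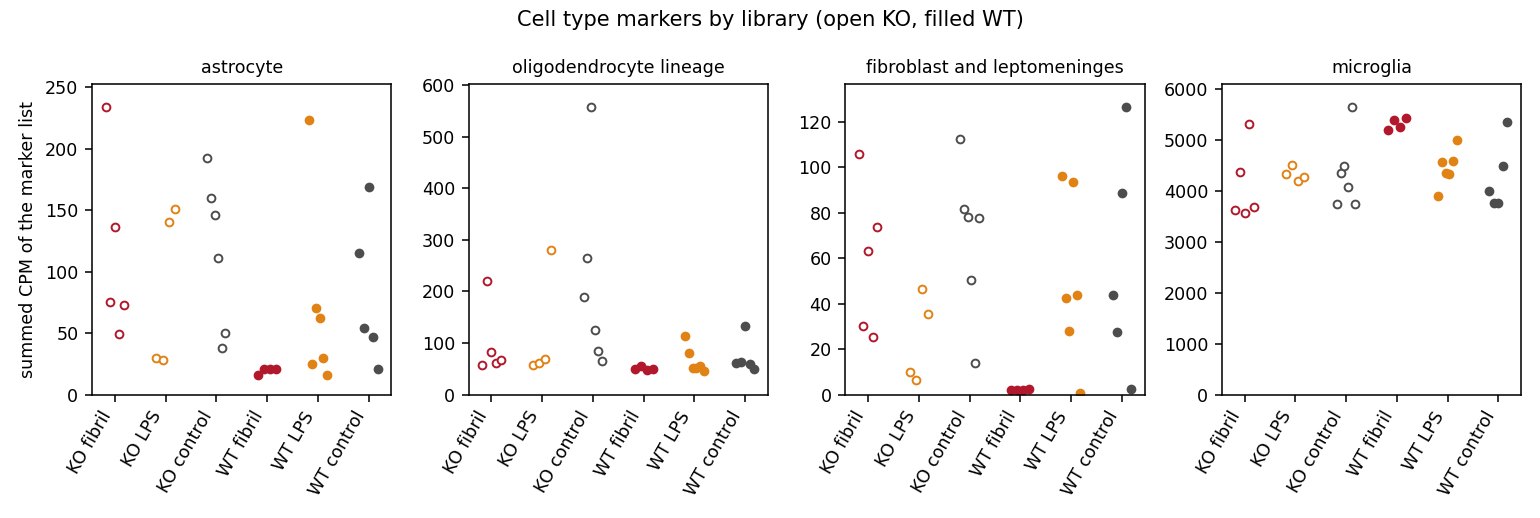
Summed CPM of the astrocyte, oligodendrocyte lineage, fibroblast and microglia marker lists, 1 point per library, by group (open points KO, filled points WT; axes start at 0). The 4 WT fibril libraries lie at 15.6 to 21.1 CPM for the astrocyte list and at 1.95 to 2.54 CPM for the fibroblast list.

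Levels of different genes were compared only per length, as TPM, a level scaled to length and library, computed from the counts and a count-weighted transcript length. Vps35 had the highest level, 160.1 ± 16.5 TPM (SD, n = 30 libraries), and was above Park7 (123 ± 18.6 TPM) in 29 of 30 libraries. Park7 in turn was above Atp13a2 (100.0 ± 25.8 TPM) in 25 of 30 libraries. Gak (60.5 ± 7.54 TPM), Scarb2 (43.7 ± 8.49 TPM) and Pink1 (32.4 ± 7.09 TPM) followed, and each of these was above the next in all 30. Tmem175 (14.6 ± 2.10 TPM) and Fbxo7 (12.996 ± 2.54 TPM) were the lowest, and the means of this last pair differed by less than the SD of either, with Tmem175 above Fbxo7 in 25 of 30 libraries. The order at the top rests on the length used. With the merged length of all annotated exons, Atp13a2 (85.5 TPM) and Vps35 (83.1 TPM) stood nearly level and Park7 was at 59.3 TPM.

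**Figure D2:**
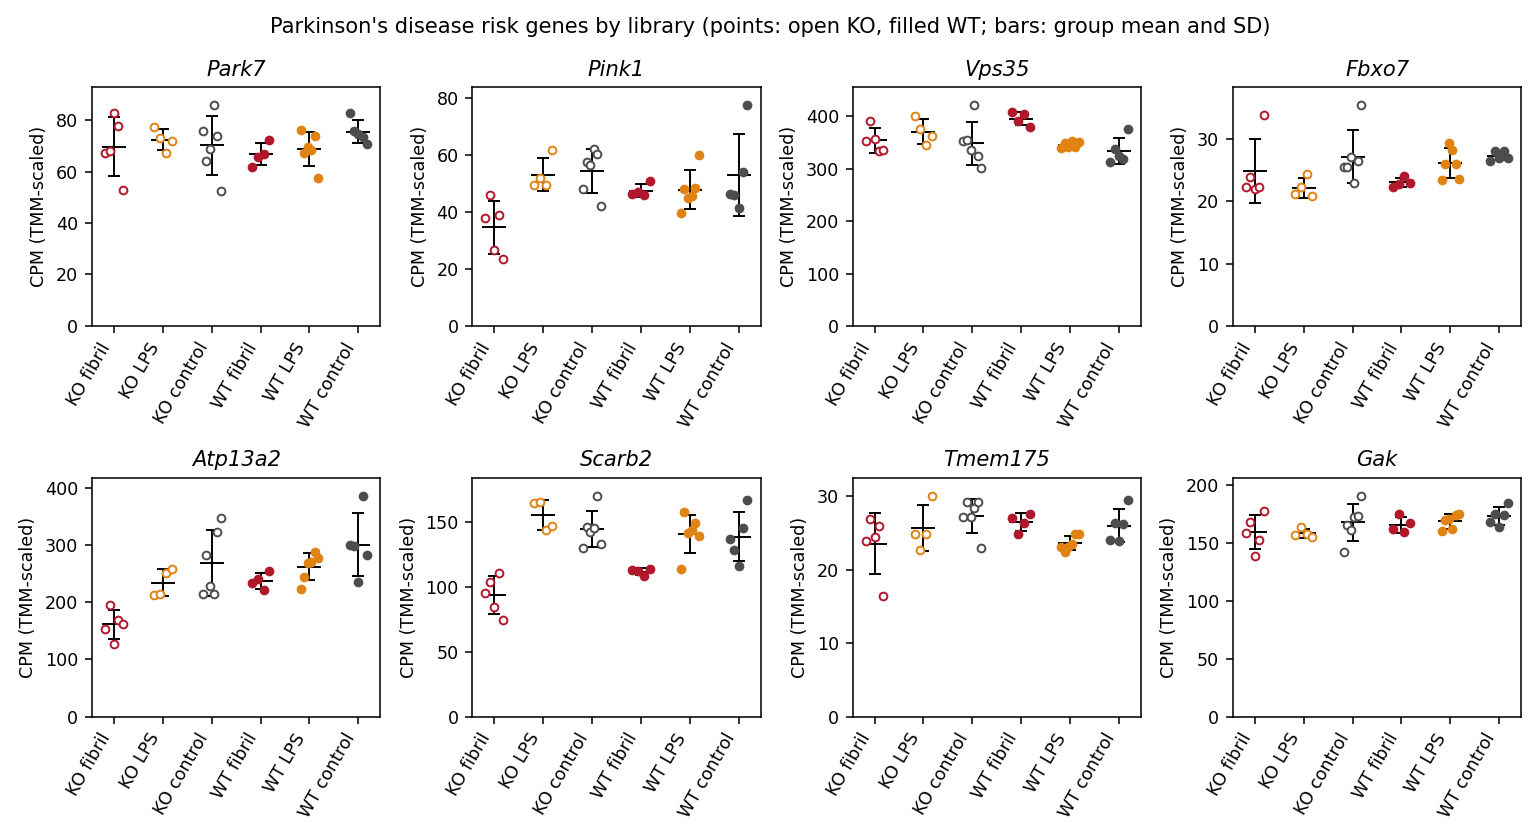
CPM of the 8 genes in each library, in 6 groups (points; open KO, filled WT), with the mean and SD of each group as bars and axes that start at 0. Scarb2 and Atp13a2 in the 5 KO fibril libraries (74.1 to 110.3 and 126 to 195 CPM) lie below all 6 KO controls (130.0 to 170.1 and 215 to 346 CPM), as held for 3.41% of all genes.

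Fibrils were accompanied by lower levels of 3 of the 8 genes in KO microglia and of 1 in WT microglia. In KO cells with fibrils Scarb2 fell to 0.648 times (95% interval 0.563 to 0.746), Atp13a2 to 0.601 times (0.500 to 0.723) and Pink1 to 0.636 times (0.510 to 0.795) the KO control level. In WT cells with fibrils Scarb2 fell to 0.805 times and Vps35 rose to 1.18 times the WT control level. The background was wide, since 23.7% of all tested genes were called in KO cells (11.5% lower) and 29.4% in WT cells (13.8% higher, 15.6% lower) at an adjusted p under 0.05 (edgeR quasi-likelihood test, Benjamini-Hochberg over all genes). The 8 genes had a median log2 fold change of -0.17 in KO cells, against -0.04 over all genes, and of -0.17 in WT cells, against -0.05 over all genes.

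Scarb2 (ENSMUSG00000029426, chromosome 5, 92441314 to 92506833, minus strand, mm10) gave the clearest change. Its level was 95.3, 104, 84.4, 110.3 and 74.1 CPM in the 5 KO fibril libraries, while the 6 KO controls had a lowest value of 130.0, a median of 144 and a highest of 170.1 CPM. Every KO fibril library lay below every KO control, which held for 3.41% of all genes in that direction. The log2 fold change was -0.63 ± 0.10 (SE, adjusted p = 3.73e-05). In WT cells the fibril libraries had 113, 112, 108 and 114 CPM and the controls 137, 129, 116, 145 and 167 CPM. These groups did not overlap either, although the gap between the highest fibril library and the lowest control was small, and 13.4% of all genes were separated in this way. The WT change was -0.31 ± 0.11 (adjusted p = 0.0322), a call that ended without WT control replicate 6 or without any of the 4 WT fibril libraries (adjusted p of up to 0.0938). The other-cell marker score of a library was the mean log2 CPM of the tested astrocyte, oligodendrocyte lineage and fibroblast markers. With this score as a covariate the WT change was -0.48 (adjusted p = 0.00316).

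Atp13a2 (ENSMUSG00000036622, chromosome 4, 140986873 to 141007330, plus strand) was at 153, 195, 126, 169 and 163 CPM in KO fibril libraries, against a lowest value of 215, a median of 255 and a highest of 346 CPM in KO controls. All 5 fibril libraries were below all 6 controls, as held for 3.41% of all genes, and the log2 fold change was -0.74 ± 0.13 (adjusted p = 1.38e-04). WT fibril libraries had 233, 240.5, 221 and 255 CPM, and WT controls 299, 299, 235, 387 and 283 CPM, so that WT control replicate 3 fell among the fibril libraries. The WT value of -0.34 ± 0.14 was not called (adjusted p = 0.0727), but it was called in 6 of 8 alternatives, for example at -0.36 with only the groups compared (adjusted p = 0.0380) and at -0.53 with library size only (adjusted p = 0.00590). It was also called without WT control replicate 3 (-0.42, adjusted p = 0.0366) and without KO LPS replicate 3 (-0.39, adjusted p = 0.0459).

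Tmem175 (ENSMUSG00000013495, chromosome 5, 108629770 to 108648782, plus strand) was at 23.9, 26.9, 24.4, 26.0 and 16.5 CPM in KO fibril libraries and at 22.9 to 29.2 CPM (median 27.8) in KO controls, and the groups overlapped. The log2 fold change was -0.22 ± 0.09 in KO cells (adjusted p = 0.102) and 0.03 ± 0.10 in WT cells (adjusted p = 0.876). The KO change was called with library size only (-0.31, adjusted p = 0.0404), without KO control replicate 6 (-0.26, adjusted p = 0.0403) and without KO fibril replicate 2 (-0.27, adjusted p = 0.0490). Tmem175 shares 2090 bases with Dgkq on the other strand, and the table holds about as many counts for Dgkq (16144) as for Tmem175 (16333). The kit was stranded, but the sources used here do not say whether counting used the strand, so Tmem175 values may hold reads of Dgkq.

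Pink1 (ENSMUSG00000028756, chromosome 4, 138313409 to 138326307, minus strand) was at 37.8, 46.0, 26.8, 39.1 and 23.6 CPM in KO fibril libraries, against a lowest value of 42.0, a median of 57.1 and a highest of 62.2 CPM in KO controls. The groups overlapped at KO fibril replicate 2 and KO control replicate 6. The log2 fold change was -0.65 ± 0.16 (adjusted p = 0.00282). In WT cells, fibril libraries had 46.5, 47.2, 45.9 and 50.8 CPM and lay inside the range of the controls, 41.5 to 77.7 CPM, with a change of -0.16 ± 0.17 (adjusted p = 0.511). The highest of these controls was WT control replicate 6, which is among the 7 libraries that stand apart. The next was replicate 5 at 54.0 CPM.

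The 3 calls of Scarb2, Atp13a2 and Pink1 in KO cells held in all 8 alternatives and with each of the 30 libraries left out in turn. The largest adjusted p among the alternatives was 0.00667 for Scarb2, 0.0160 for Atp13a2 and 0.0313 for Pink1. Without the 7 libraries that stand apart, 4 of the 8 genes were called in KO cells, the 3 above and Fbxo7 (-0.22, adjusted p = 0.0164). In WT cells 5 of the 8 were called, Scarb2 (-0.24), Vps35 (0.29), Atp13a2 (-0.36), Fbxo7 (-0.25) and Park7 (-0.20). Over all genes that fit called 3640 in KO cells, against 3402 in the full fit, and 5845 in WT cells, against 4216. Summed other-cell markers in KO fibril libraries were within or below the range of KO controls for the oligodendrocyte list (65.4 to 557 CPM in KO controls) and reached above it for the astrocyte list (37.7 to 193 CPM in KO controls) in 1 library.

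The windows around the annotated start sites of the 3 genes that fell in KO cells are shown so that their letters can be compared. Each is the RefSeq window of 300 bases on GRCm38.p6, from 250 before to 50 after the start, written 5′ to 3′ on the gene's strand. Capitals in the Scarb2 and Atp13a2 windows mark GGGCGG, the GC box, on either strand, and capitals in the Pink1 window mark the element bound by the transcription factor NRF1 (GCGCA and GCGC around any 1 base), on either strand. The Scarb2 window is chr5:92505608-92505907 (minus), that of Atp13a2 chr4:140986671-140986970 (plus) and that of Pink1 chr4:138326247-138326546 (minus).
Scarb2: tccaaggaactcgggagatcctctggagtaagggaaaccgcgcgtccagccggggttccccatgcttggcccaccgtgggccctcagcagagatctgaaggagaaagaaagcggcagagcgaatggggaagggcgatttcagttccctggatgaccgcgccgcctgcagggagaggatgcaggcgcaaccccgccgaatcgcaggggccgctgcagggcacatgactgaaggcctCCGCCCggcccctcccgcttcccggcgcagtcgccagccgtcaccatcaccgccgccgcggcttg
Atp13a2: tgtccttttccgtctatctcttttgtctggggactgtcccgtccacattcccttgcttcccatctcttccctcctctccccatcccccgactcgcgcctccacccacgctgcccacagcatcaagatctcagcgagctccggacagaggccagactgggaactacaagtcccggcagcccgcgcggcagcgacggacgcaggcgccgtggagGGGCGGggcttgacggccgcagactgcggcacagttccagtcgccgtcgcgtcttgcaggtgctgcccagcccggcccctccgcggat
Pink1: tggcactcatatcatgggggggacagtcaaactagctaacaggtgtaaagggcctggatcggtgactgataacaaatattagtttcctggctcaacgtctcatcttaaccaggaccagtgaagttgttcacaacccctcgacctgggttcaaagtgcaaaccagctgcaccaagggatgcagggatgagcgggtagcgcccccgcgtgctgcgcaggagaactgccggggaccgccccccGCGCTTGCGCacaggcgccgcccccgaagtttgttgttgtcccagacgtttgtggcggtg

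Windows were matched for 7 of the 8 genes, all except Vps35. GGGCGG was found in the windows of 6 of these 7 genes, Fbxo7 being the exception, and in 35.7% of 32851 windows of all genes. The NRF1 element was found in the windows of Pink1, Park7, Fbxo7, Gak and Tmem175, 5 of the 7, and in 4.60% of all windows. The Gak and Tmem175 matches are not independent, because these windows overlap. CACGTG, the core of the element bound by TFEB at many lysosomal genes, was found for Fbxo7 alone among the 7, in its second annotated window, and in 7.15% of all windows. CACATG was found for Scarb2 and Park7 and in 14.2% of all windows. TGACNNNGC, the core of the antioxidant response element, was found for Scarb2, Tmem175 and Gak and in 12.4% of all windows, TGACG for Park7, Atp13a2, Scarb2, Tmem175 and Gak and in 20.8%, and GGAAGT for Tmem175 and in 23.8%. A gene was counted if any of its windows matched, and Fbxo7 has 2 windows, while the shares of all windows are over single windows. Both strands were searched, TGACG can overlap TGACNNNGC, and a match is a description of letters only.

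Fbxo7 and Park7, the other genes tied to mitochondria here, were not called with fibrils. Fbxo7 (ENSMUSG00000001786, chromosome 10, 86021972 to 86051873, plus strand) was at 22.4, 23.9, 21.9, 22.3 and 33.9 CPM in KO fibril libraries and at 23.0 to 35.5 CPM (median 26.0) in KO controls. The KO change was -0.13 ± 0.10 (adjusted p = 0.404), and without KO fibril replicate 5, the highest library, it was called (-0.27, adjusted p = 0.0277). WT fibril libraries had 22.3, 22.8, 24.1 and 22.9 CPM, all below the WT controls at 26.5, 28.1, 27.0, 28.0 and 27.0 CPM. Such a separation was also seen for 13.4% of all genes. The fitted WT change of -0.25 ± 0.11 was not called (adjusted p = 0.101). It was called without the 7 libraries that stand apart (-0.25, adjusted p = 0.00291), without KO fibril replicate 5 (adjusted p = 0.0381), with library size only (-0.45, adjusted p = 0.00513) and with only the groups compared (-0.27, adjusted p = 0.00548).

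Park7 (ENSMUSG00000028964, chromosome 4, 150897133 to 150914437, minus strand) was at 52.8 to 82.8 CPM in KO fibril libraries and at 52.5 to 85.9 CPM in KO controls, nearly the same range, with a change of -0.01 ± 0.10 (95% interval -0.22 to 0.20). WT fibril libraries had 61.9, 65.8, 66.9 and 72.3 CPM and WT controls 82.7, 75.7, 74.7, 73.4 and 70.6 CPM. The WT change of -0.18 ± 0.11 was not called (adjusted p = 0.251), although it was in 4 of 8 alternatives.

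Vps35 (ENSMUSG00000031696, chromosome 8, 85260392 to 85299802, minus strand) was the 1 gene of the 8 that rose. WT fibril libraries had 407, 390.0, 404 and 380 CPM, all above the WT controls at 313, 337, 325, 319 and 376 CPM, a separation also seen for 16.4% of all genes. The log2 fold change was 0.24 ± 0.08 (adjusted p = 0.0184). It was 0.05 (adjusted p = 0.712) when libraries were scaled by size only, where the median of all genes moved by -0.20. The call also ended with no filter on low counts (adjusted p = 0.103), with the other-cell marker score as a covariate (0.102), and without KO LPS replicate 3, WT control replicate 5 or WT fibril replicate 1 (up to 0.0792). In KO cells the change was 0.02 ± 0.07 (adjusted p = 0.868), with 333 to 391 CPM in fibril libraries and 302 to 421 CPM in controls.

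Gak (ENSMUSG00000062234, chromosome 5, 108569411 to 108629755, minus strand) varied least. Its group means were 159 ± 15.0 CPM in KO fibril libraries (SD, n = 5) and 168 ± 16.2 CPM in KO controls (n = 6), and 166 ± 6.99 CPM in WT fibril libraries (n = 4) and 173 ± 7.99 CPM in WT controls (n = 5). The changes were -0.07 ± 0.07 in KO cells (95% interval -0.21 to 0.06) and -0.06 ± 0.07 in WT cells (95% interval -0.21 to 0.08). Gak was called in none of the 9 comparisons of groups described here, but scaled by library size only it was lower with fibrils in WT cells (-0.26, adjusted p = 0.0101).

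**Figure D3:**
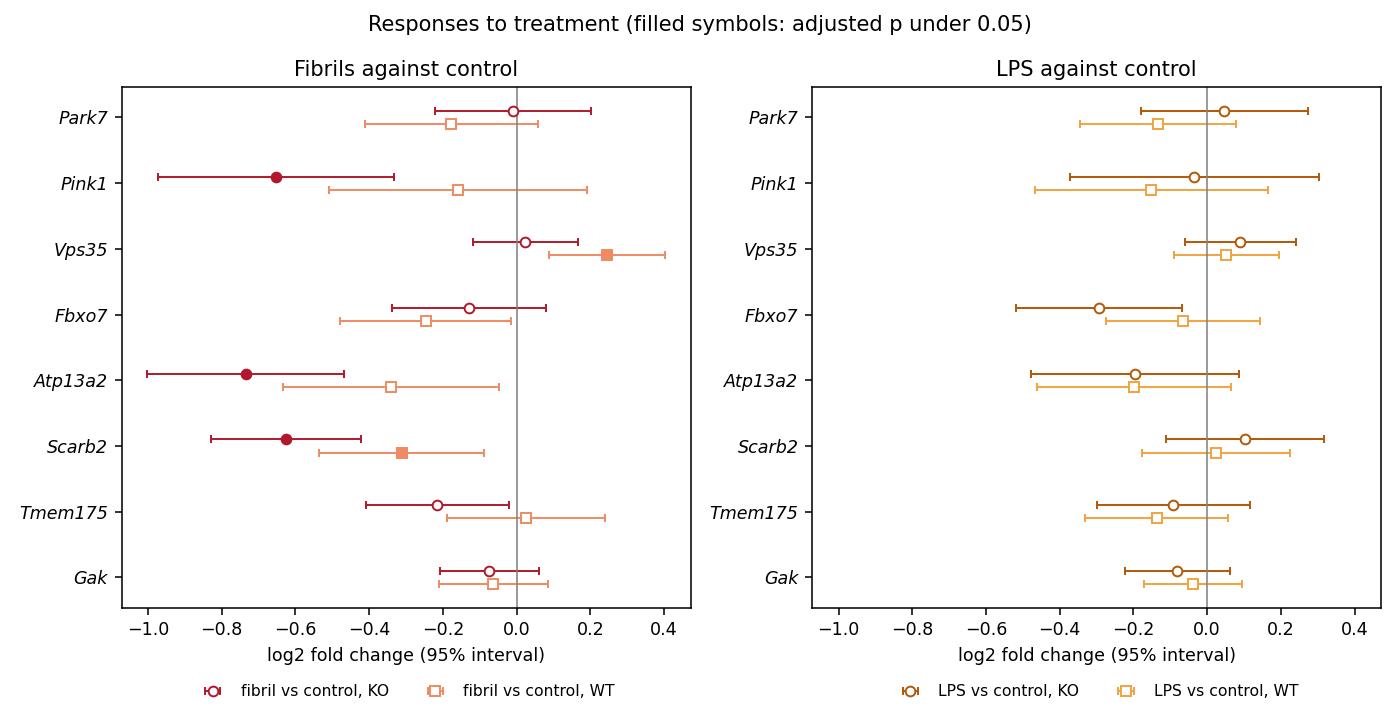
Log2 fold changes with 95% intervals of the 8 genes for fibrils against control (left) and LPS against control (right), in KO cells (circles) and WT cells (squares). Filled symbols mark an adjusted p under 0.05: Scarb2, Atp13a2 and Pink1 lower in KO and Scarb2 lower and Vps35 higher in WT, all with fibrils.

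Whether the fibril responses differed between genotypes was tested directly. The difference, KO minus WT response, was -0.31 ± 0.15 for Scarb2, -0.40 ± 0.19 for Atp13a2, -0.49 ± 0.23 for Pink1 and -0.22 ± 0.10 for Vps35. These 4 genes had an unadjusted p under 0.05, of 0.0405, 0.0484, 0.0414 and 0.0420, but adjusted p-values of 0.407 to 0.424, so that none of the 8 was called, in edgeR or in any alternative. The background was 0% of 14346 genes in edgeR, with 1667 genes at an unadjusted p under 0.05, while DESeq2 called 71 genes and the fit without the 7 libraries that stand apart called 250. The fibril responses share the libraries of the comparisons above. The same test for LPS called 0% of genes, with 600 genes and none of the 8 at an unadjusted p under 0.05, and 0 genes in DESeq2.

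LPS left the gene totals of all 8 uncalled in both genotypes, while 13.7% of all tested genes were called in KO cells and 15.1% in WT cells. The changes lay between -0.29 and 0.10 in KO cells and between -0.20 and 0.05 in WT cells. The median change of the 8 genes was -0.06 in KO cells, against -0.04 over all genes, and -0.10 in WT cells, against -0.02 over all genes. Scarb2, which fell with fibrils, was at 165, 165, 143 and 147 CPM in KO LPS libraries and at 130.0 to 170.1 CPM in KO controls, a change of 0.10 ± 0.10 (95% interval -0.11 to 0.32). In WT cells Scarb2 was at 114 to 157 CPM with LPS (median 143) and at 116 to 167 CPM in controls, a change of 0.02 ± 0.10.

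Fbxo7 came nearest to a call with LPS. KO LPS libraries had 21.2, 22.2, 24.4 and 20.9 CPM, and KO controls 23.0 to 35.5 CPM, with overlap at KO LPS replicate 3. The change was -0.29 ± 0.11 (adjusted p = 0.0760). Without KO control replicate 4 or KO fibril replicate 5 it passed the threshold (adjusted p down to 0.0207), and it did so without the 7 libraries that stand apart (-0.25, adjusted p = 0.0119). Scaling by library size only, which moved the median of all genes by -0.17 in KO and -0.21 in WT cells, gave lower calls with LPS for 2 genes in KO cells (Fbxo7 and Gak) and 5 in WT cells (Park7, Fbxo7, Atp13a2, Tmem175 and Gak). The same scaling left 517 of 2835 called genes higher with LPS in KO cells, against 912 of 1967 with TMM scaling, and 593 of 3827 in WT cells, against 1019 of 2171. With fibrils it left 1002 of 3234 called genes higher in KO cells, against 1746 of 3402, and 793 of 4562 in WT cells, against 1985 of 4216.

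A direct comparison of the stimuli, fibrils against LPS, gave calls for the same genes as the comparison of fibrils with control, with which it shares the fibril libraries. In KO cells 26.5% of all genes were called (12.7% lower), and Scarb2 (-0.73 ± 0.11, adjusted p = 1.30e-05), Pink1 (-0.62 ± 0.17, adjusted p = 0.00794) and Atp13a2 (-0.54 ± 0.14, adjusted p = 0.00544) were lower with fibrils. Every KO fibril library was below every KO LPS library for these 3 genes, which held for 10.6% of all genes. The Pink1 call ended with only the groups compared (adjusted p = 0.0516). In WT cells 37.1% of all genes were called (18.1% higher, 18.9% lower). Scarb2 was lower with fibrils (-0.34 ± 0.11, adjusted p = 0.0142) and Vps35 higher (0.19 ± 0.07, adjusted p = 0.0409), with 380 to 407 CPM of Vps35 in WT fibril libraries and 339 to 353 CPM in WT LPS libraries. Neither gene overlapped between these groups, as held for 19.3% of all genes in the higher and 16.2% in the lower direction. For Scarb2 the groups nearly touched, at 113.5 CPM in WT fibril replicate 4 and 113.9 CPM in WT LPS replicate 1. The latter is among the 7 libraries that stand apart. The Vps35 call ended in 6 of 8 alternatives and without any of 11 single libraries (each WT fibril library, WT LPS replicates 1 to 5, KO LPS replicate 3 and WT control replicate 5, with an adjusted p of up to 0.119). Fbxo7 was not called between these WT groups, but it was lower with fibrils with only the groups compared (-0.20, adjusted p = 0.0337) and without the 7 libraries that stand apart (-0.25, adjusted p = 0.00291). Those 7 include WT LPS replicates 1 and 6, which had the lowest Fbxo7 of the WT LPS libraries (23.5 CPM each).

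Loss of Lrrk2 was not accompanied by a called change of any of the 8 genes in controls or with LPS. In controls 0.321% of all genes were called between KO and WT, and the differences of the 8 genes lay between -0.16 (Atp13a2) and 0.07 (Tmem175). The widest 95% interval among them, that of Pink1, was -0.28 to 0.35. With LPS 1.73% of all genes were called, and the differences lay between -0.23 (Fbxo7) and 0.15 (Pink1). At an unadjusted p under 0.05, none of the 8 genes passed in controls and 1, Fbxo7, passed with LPS. Fbxo7 had 21.2, 22.2, 24.4 and 20.9 CPM in KO LPS libraries and 23.5 to 29.4 CPM (median 25.9) in WT LPS libraries. The difference of -0.23 ± 0.11 (adjusted p = 0.266) became -0.30 (adjusted p = 0.00572) without the 7 libraries that stand apart. Those 7 include WT LPS replicates 1 and 6, which had the lowest Fbxo7 of their group (23.5 CPM each). Only these WT LPS libraries overlapped with the KO LPS libraries, so this call depends on an exclusion chosen after seeing the data.

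With fibrils 8.94% of all genes were called between KO and WT (3.67% lower in KO), and among the 8 genes Atp13a2 was lower in KO. The 5 KO fibril libraries had 126 to 195 CPM and the 4 WT fibril libraries 221 to 255 CPM. The groups did not overlap, as was so in this direction for 7.87% of all genes. The log2 fold change was -0.56 ± 0.14 (adjusted p = 0.0173). It was -0.38 (adjusted p = 0.551) with the other-cell marker score as a covariate and -0.41 (adjusted p = 0.0609) with library size only, and the call also ended without KO fibril replicate 3, WT fibril replicate 2 or WT fibril replicate 4 (up to 0.0562). As given above, the astrocyte and fibroblast markers in KO fibril libraries were all above those in WT fibril libraries. The marker score was 0.913 to 2.65 in KO fibril and -1.05 to -0.683 in WT fibril libraries. As these groups share no range of the score, that covariate cannot tell the markers apart from genotype. The part of these markers in the Atp13a2 difference was not tested. Pink1 (-0.46 ± 0.17, adjusted p = 0.0872), Scarb2 (-0.25 ± 0.11, adjusted p = 0.138) and Vps35 (-0.16 ± 0.08, adjusted p = 0.197) were not called, although Pink1 was without the 7 libraries that stand apart (-0.35, adjusted p = 0.0425), without KO fibril replicate 2 (-0.58, adjusted p = 0.0294) and without WT control replicate 6 (-0.46, adjusted p = 0.0478).

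**Figure D4:**
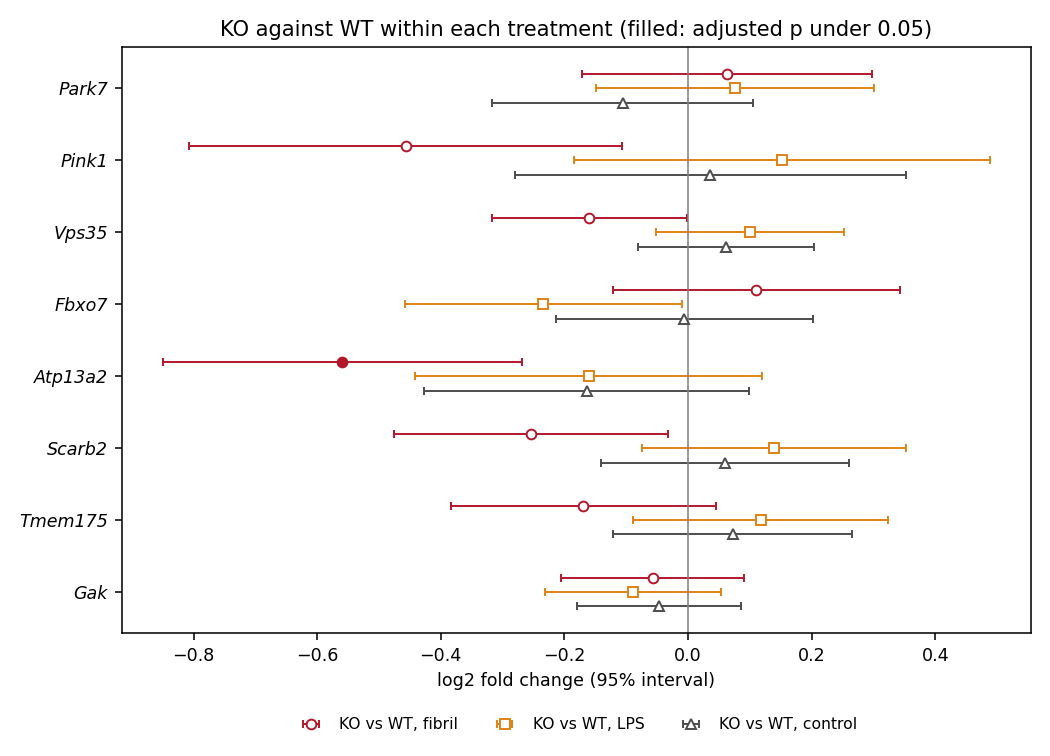
Log2 fold changes, KO against WT, with 95% intervals, for the 8 genes with fibrils (circles), with LPS (squares) and in controls (triangles). The single filled symbol is Atp13a2 with fibrils (-0.56, adjusted p = 0.0173).

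The deposited table is by transcript, so the same model was also fitted to 37951 transcripts, a fit chosen after the gene results had been seen. The 8 genes have 43 annotated transcripts, of which 36 were tested. Scarb2 and Vps35 have 1 transcript each. A single transcript holds 95.7% of the counts of Pink1 and 90.7% of those of Park7, while Atp13a2 is divided between Atp13a2-201 (55.2%) and Atp13a2-203 (35.7%), both protein-coding. The sources used here do not say how reads were divided between transcripts that share exons. In KO cells with fibrils 5 of the 36 transcripts were called, all lower, beside 5.69% of all transcripts (2.39% lower). These were Scarb2-201 (-0.63 ± 0.10), Atp13a2-201 (-0.73 ± 0.17), Atp13a2-203 (-0.66 ± 0.15), the retained-intron transcript Atp13a2-206 (-1.04 ± 0.25) and Pink1-201 (-0.64 ± 0.17). The main coding transcripts of Atp13a2 thus fell together with fibrils. In WT cells with fibrils none of the 36 was called, beside 6.02% of all transcripts.

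With LPS, by contrast, 3 minor transcripts of Atp13a2 fell in both genotypes while the main ones did not change detectably. Of the 36 transcripts 3 were called in KO cells, beside 4.85% of all transcripts (2.2% lower), and 4 in WT cells, beside 5.53% (2.61% lower). Atp13a2-202, a transcript with a retained intron, was at 0.327, 0.219, 0.278 and 0.0442 CPM in KO LPS libraries, from 1 to 7 counts each, and at 2.52 to 6.27 CPM in KO controls. It had 0 to 0.478 CPM in WT LPS libraries, with 0 counts in 2 of the 6, and 4.31 to 9.27 CPM in WT controls. Every LPS library lay below every control of its genotype, as was so for 2.72% of all tested transcripts in KO and 2.83% in WT cells. The log2 fold change was -4.17 ± 0.75 in KO (adjusted p = 4.99e-04) and -4.96 ± 0.65 in WT cells (adjusted p = 5.40e-06).

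Atp13a2-208, a minor protein-coding transcript, behaved alike, with 0.0397 to 1.63 CPM in KO LPS libraries and 3.73 to 10.2 CPM in KO controls, and with 0 to 2.18 CPM in WT LPS libraries and 5.59 to 11.4 CPM in WT controls. Its changes were -2.87 ± 0.74 in KO (adjusted p = 0.0181) and -3.52 ± 0.66 in WT cells (adjusted p = 7.44e-04). Atp13a2-206 was at 5.13 to 10.3 CPM in KO LPS libraries and 8.65 to 23.1 CPM in KO controls, which overlapped, and at 6.40 to 8.48 CPM in WT LPS libraries and 11.4 to 27.9 CPM in WT controls, which did not. It changed by -1.26 ± 0.27 in KO (adjusted p = 0.00433) and by -1.18 ± 0.25 in WT cells (adjusted p = 0.00238). Atp13a2-201 changed by -0.03 ± 0.17 in KO and -0.05 ± 0.16 in WT cells, and Atp13a2-203 by -0.10 ± 0.15 in KO and -0.12 ± 0.14 in WT cells. Together the 3 minor transcripts are a small part of the gene, with shares of 4.63%, 1.78% and 1.10% of its counts for Atp13a2-206, Atp13a2-208 and Atp13a2-202.

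The 6 LPS calls of these transcripts were refitted with library size only and with each of the 21 control and LPS libraries left out. All held except that of Atp13a2-208 in KO cells, which ended without KO LPS replicate 2 (adjusted p = 0.0600). Over all genes, 7374 retained-intron transcripts were tested, and LPS gave lower calls for 3.02% of them in KO and 3.30% in WT cells, with median changes of -0.29 in KO and -0.20 in WT cells. The other transcript called with LPS in WT cells was Fbxo7-201, a target of nonsense-mediated decay at 0 counts in all 6 WT LPS libraries and at 0 to 1.72 CPM in WT controls, so that the groups touched at 0. No transcript of the 8 genes was called between KO and WT in any treatment, beside 0.696% of all transcripts with fibrils, 0.166% with LPS and 0.0949% in controls.

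**Figure D5:**
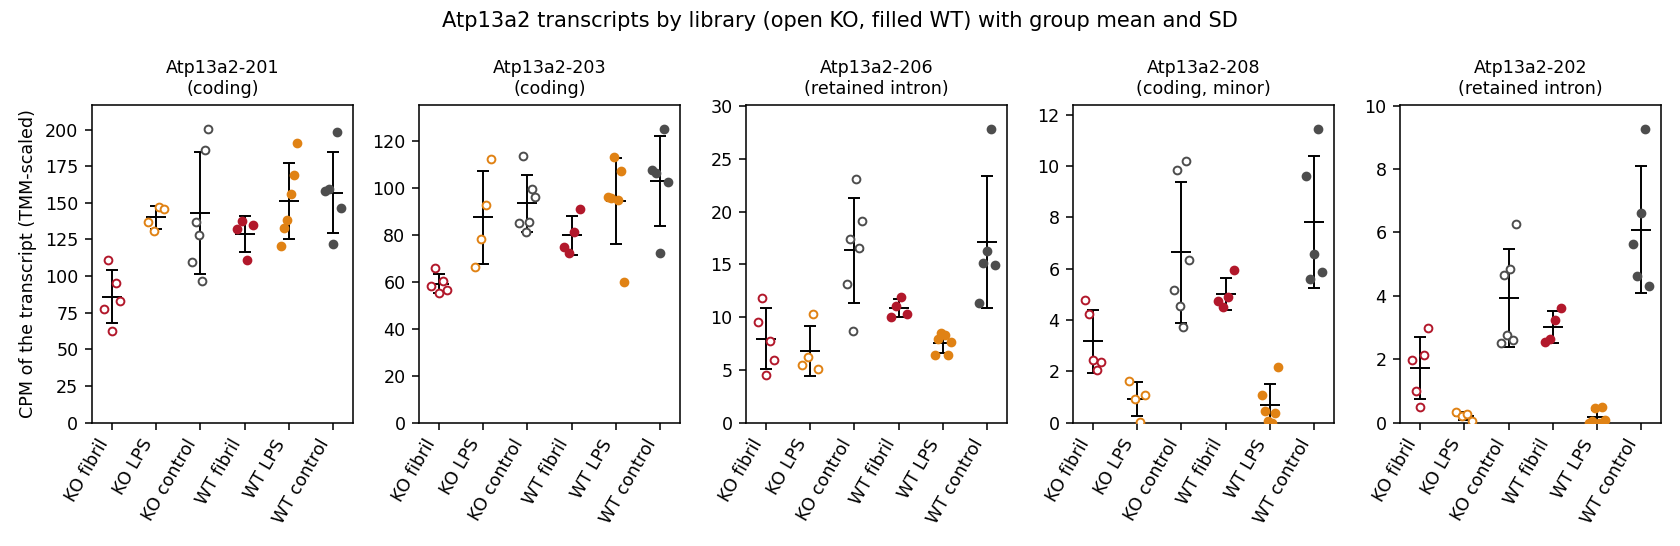
CPM of 5 Atp13a2 transcripts in each library by group (points; open KO, filled WT), with group mean and SD as bars and axes that start at 0. With LPS, Atp13a2-202 and Atp13a2-208 lie at or below 2.18 CPM in all 10 libraries, below every control, while the coding transcripts Atp13a2-201 and Atp13a2-203 overlap with the controls.

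Gak and Tmem175 lie back to back on chromosome 5 and are read in opposite directions. Their RefSeq start sites, at 108629777 for Gak and 108629810 for Tmem175, are 33 bases apart, and the promoter windows share 132 bases. The Tmem175 window is chr5:108629560-108629859 (plus, GRCm38.p6), and it is printed because it holds both start sites. The capitals run from the start site of Gak to that of Tmem175.
Tmem175: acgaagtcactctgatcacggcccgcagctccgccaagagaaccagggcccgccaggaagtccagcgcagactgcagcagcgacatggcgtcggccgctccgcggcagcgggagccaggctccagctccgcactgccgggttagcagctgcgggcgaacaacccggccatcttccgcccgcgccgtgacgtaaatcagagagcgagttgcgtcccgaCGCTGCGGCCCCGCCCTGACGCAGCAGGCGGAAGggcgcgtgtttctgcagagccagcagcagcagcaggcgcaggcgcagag

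Gak and Tmem175 had little in common over the 30 libraries (Pearson r of log2 CPM -0.14, and -0.30 after removal of group means). The pairs that varied most alike were Pink1 with Scarb2 (r = 0.83, 0.76 within groups) and Pink1 with Tmem175 (0.75, 0.77 within groups). Atp13a2 and Scarb2 had r = 0.68 over all libraries and 0.35 within groups. The strongest opposite pair was Vps35 with Fbxo7 (-0.62, -0.48 within groups). Within groups Fbxo7 with Tmem175 (-0.709) and Fbxo7 with Park7 (-0.706) were the most opposite. In KO control replicate 6 and KO fibril replicate 5 Fbxo7 was the highest, and Tmem175 and Park7 the lowest, of their group. All libraries share the TMM scaling, so these values are descriptions.

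Among all tested genes, those whose log2 CPM was most like that of Scarb2 over the 30 libraries were Itga6 (r = 0.96), Arhgap18 (0.96) and Snx5 (0.95). For Pink1 they were Nbr1 (0.93), Fbxo21 (0.93) and Klc4 (0.92), and for Atp13a2 Pla2g15 (0.91), Fam234a (0.90) and Arhgap45 (0.89). Vps35 was most like Mfsd1 (0.88), Ctnnb1 (0.82) and Atp6v1h (0.82). For Park7 the nearest genes were Eef1d (0.88), Nup85 (0.84) and Fancl (0.82), and for Fbxo7 they were Foxj2 (0.88), Parp11 (0.84) and Slc12a9 (0.84). Tmem175 was nearest to Dnajc12 (0.83), Bckdha (0.81) and Wbp1 (0.81), and Gak to Prpsap1, Mroh1 and Tmem104 (0.84 each).

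Partner genes of the 8 were taken from lists by function. Their counts are to be read against the shares of all genes, and a count near its share is not particular to a list. With fibrils 23.7% of all genes were called in KO cells (1746 of 14346 higher, 11.5% lower). In WT cells the share was 29.4% (13.8% higher, 15.6% lower). With LPS 13.7% were called in KO cells (912 genes higher) and 15.1% in WT cells (1019 genes higher). Between KO and WT with fibrils 8.94% were called (3.67% lower). Of 10 lysosomal sorting receptors and glucocerebrosidase genes around Scarb2, 1 rose with fibrils in KO cells and 2 rose in WT cells, with none lower in either. M6pr, a mannose 6-phosphate receptor that brings enzymes to lysosomes, rose by 0.43 ± 0.06 in KO and 0.51 ± 0.07 in WT cells, so the direction was opposite to that of Scarb2. Igf2r, the other such receptor, was the second gene called in WT cells (0.53 ± 0.19). Of 10 lysosomal channels and transporters around Tmem175, the calcium channel gene Mcoln2 rose with fibrils in KO (1.10 ± 0.20) and WT cells (1.46 ± 0.22), and the endolysosomal cation channel gene Tpcn1 fell in KO (-0.61 ± 0.13) and WT cells (-0.87 ± 0.14). Clcn7 (0.65 ± 0.19) and Ostm1 (0.36 ± 0.12), which form a lysosomal chloride transporter, were also called in WT cells. With LPS, Mcoln2 rose by 0.86 ± 0.21 in KO and 0.85 ± 0.20 in WT cells, and Tpcn1 (-0.45 ± 0.14) and Tmem63a (-0.54 ± 0.14) fell in KO cells.

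Of 12 genes of polyamine metabolism and related pumps around Atp13a2, 3 rose and 1 fell with fibrils in KO cells and 2 rose and 2 fell in WT cells. Paox, which oxidises acetylated polyamines, fell by 0.88 ± 0.14 on the log2 scale in KO and by 0.80 ± 0.15 in WT cells. Amd1 (0.88 ± 0.17), Srm (0.62 ± 0.15) and Azin1 (0.49 ± 0.15) rose in KO cells, and Azin1 (0.67 ± 0.17) and Sms (0.41 ± 0.12) rose and Odc1 (-1.03 ± 0.24) fell in WT cells. With LPS Odc1, which encodes the rate-limiting enzyme of polyamine synthesis, rose by 1.98 ± 0.23 in KO and 1.84 ± 0.23 in WT cells. Atp13a3, a relative of Atp13a2, also rose, by 0.46 ± 0.15 in KO and by 0.48 ± 0.14 in WT cells, while Atp13a2 itself was not called. Azin1 in KO cells and Smox in WT cells completed the LPS calls of this list.

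Of 23 genes of mitophagy and mitochondrial outer-membrane import around Pink1, 9 rose and 2 fell with fibrils in KO cells, and 10 rose and 1 fell in WT cells. Parl, the protease that cleaves Pink1, rose by 0.46 ± 0.07 and Usp15, a deubiquitinase, by 0.34 ± 0.06 in KO cells. Fundc1, a mitophagy receptor (-0.48 ± 0.08), and Usp30 (-0.34 ± 0.09), a deubiquitinase of the mitochondrial outer membrane, fell in KO cells. In WT cells Tomm70a (0.57 ± 0.09), Rhot1 (0.38 ± 0.07) and the mitophagy receptor gene Bnip3 (1.64 ± 0.33) rose, and Rhot2 (-0.24 ± 0.09) fell. Scaled by library size only, the counts were 8 higher and 3 lower in KO and 4 higher and 3 lower in WT cells, and the list's median in WT cells was 0.02, against 0.22 with TMM scaling. With LPS the autophagy receptor genes Sqstm1 (1.21 ± 0.16 in KO, 1.00 ± 0.16 in WT) and Optn (0.95 ± 0.18 in KO, 1.25 ± 0.17 in WT) rose, and Usp30 fell in KO (-0.51 ± 0.10) and WT cells (-0.50 ± 0.09). In all, 3 of the 23 rose and 1 fell with LPS in KO cells and 4 rose and 3 fell in WT cells. Between KO and WT cells with fibrils, the mitophagy receptor genes Bnip3 (-1.22 ± 0.33), Bnip3l (-0.64 ± 0.20) and Fundc1 (-0.32 ± 0.09) were lower in KO.

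Of 18 genes of retromer, sorting nexins and the WASH complex around Vps35, 1 rose and 4 fell with fibrils in KO cells, whereas 7 rose and 2 fell in WT cells. The sorting nexin gene Snx5 fell in KO (-0.82 ± 0.11) and WT cells (-0.58 ± 0.12), as did Tbc1d5 (-0.50 ± 0.09 in KO, -0.65 ± 0.10 in WT), which restrains the retromer-associated GTPase Rab7. The retromer subunit gene Vps26b (-0.31 ± 0.08) and Washc1 (-0.28 ± 0.08) fell in KO cells, and Washc4 rose (0.24 ± 0.07). Washc4, of the WASH complex, rose also in WT cells (0.32 ± 0.08). With library size only, the counts were 0 higher and 4 lower in KO cells and 1 higher and 3 lower in WT cells, so most rises in WT cells were lost with that scaling. In KO against WT cells with fibrils, Washc1 (-0.29 ± 0.09) and Vps26a (-0.39 ± 0.12) were lower, and neither was called with RLE scaling or library size only.

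Of 18 clathrin coat and adaptor genes around Gak, 4 rose and 2 fell with fibrils in KO cells and 3 rose and 3 fell in WT cells. The adaptor subunit gene Ap1b1 fell (-0.69 ± 0.12 in KO, -0.65 ± 0.13 in WT), and Hspa8, the chaperone that works with Gak in uncoating, rose (0.50 ± 0.11 in KO, 0.58 ± 0.12 in WT). Ap2b1, Ap1s1 and Ap1m1 were the others that rose and Ap2a2 the other that fell in KO cells, and in WT cells they were Ap2s1 and Ap2b1 (higher) and Ap2a2 and Cltc (lower). Of 5 partners of Fbxo7, the ligase scaffold gene Cul1 rose with fibrils in KO (0.25 ± 0.08) and WT cells (0.67 ± 0.09), and Rbx1 rose in WT cells (0.37 ± 0.10). Of 10 redox partners of Park7, the glutathione synthesis gene Gclm rose with fibrils in KO cells (0.79 ± 0.22), and Gclm (1.25 ± 0.24), Prdx1 (1.33 ± 0.23), Nqo1 (1.32 ± 0.34) and Txn1 (0.72 ± 0.19) rose in WT cells.

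Among 12 other tested genes linked to familial parkinsonism, Eif4g1 rose (0.43 ± 0.06) and Vps13c (-0.73 ± 0.26) fell with fibrils in KO cells. In WT cells Eif4g1 (0.44 ± 0.07), Tmem230 (0.33 ± 0.10) and Uchl1 (1.09 ± 0.41) rose and none fell. Among 24 tested genes named at loci from association studies, Gch1, which makes the cofactor tetrahydrobiopterin, rose with fibrils (1.47 ± 0.18 in KO, 1.41 ± 0.20 in WT) and with LPS (1.62 ± 0.19 in KO, 1.55 ± 0.19 in WT). In this list 2 genes rose and 3 fell with fibrils in KO cells, 1 rose and 4 fell in WT cells, and 2 rose with LPS in each genotype. Nod2, a sensor of bacterial peptidoglycan, rose with fibrils in KO cells (1.00 ± 0.33) and with LPS (1.27 ± 0.35 in KO, 1.16 ± 0.33 in WT), and Inpp5f fell with fibrils in KO cells (-0.20 ± 0.07). The lysosomal enzyme genes Galc (-0.68 ± 0.16 in KO, -0.63 ± 0.18 in WT) and Idua (-0.38 ± 0.14 in KO, -0.49 ± 0.15 in WT) fell with fibrils. Mapt and Stk39 were lower with fibrils in WT cells (-5.92 ± 1.41 and -2.56 ± 0.70) and higher in KO than in WT fibril libraries (6.29 ± 1.40 and 2.96 ± 0.71). WT fibril was the group whose astrocyte and fibroblast markers were lowest. The sum of 7 neuron markers was 1.11 to 1.76 CPM in WT fibril, 1.81 to 14.1 CPM in WT control and 4.48 to 14.5 CPM in KO fibril libraries. The part of all these markers was not tested, and the levels of Mapt and Stk39 are not reported here.

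The remaining calls of these lists with LPS were few. In KO cells Igf2r (0.64 ± 0.18) and Tomm20 (0.39 ± 0.12) rose, and so did the clathrin heavy chain gene Cltc (0.35 ± 0.12), while Washc1 (-0.36 ± 0.08) and Vps26b (-0.27 ± 0.08) fell. Nfe2l2, which encodes the main transcription factor of the antioxidant response, rose in KO (0.83 ± 0.21) and WT cells (0.87 ± 0.20), and Prdx1 (0.76 ± 0.22) and Gclm (0.76 ± 0.23) rose in KO cells. In WT cells Rab7 (0.39 ± 0.11), the clathrin adaptor gene Picalm (0.45 ± 0.12), Tax1bp1 (0.41 ± 0.10) and Tbk1 (0.30 ± 0.08) rose. Washc1 (-0.34 ± 0.08), the Fbxo7 partner Psmf1 (-0.31 ± 0.09), Oma1 (-0.28 ± 0.08) and Rhot2 (-0.26 ± 0.08) fell in WT cells. Of the familial genes, Eif4g1 rose in KO cells (0.21 ± 0.07), and Gigyf2 rose (0.26 ± 0.07) and Htra2 fell (-0.30 ± 0.09) in WT cells.

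Between the genotypes, no gene of these 10 lists was called in controls, where 46 of 14346 genes were called in all. With LPS, Tpcn1 alone among them was lower in KO than in WT cells (-0.76 ± 0.14, adjusted p = 0.00514). With fibrils, Psap, the precursor of the saposins that assist lysosomal enzymes (-0.71 ± 0.22), Mcoln2 (-0.69 ± 0.22), Oaz1, an inhibitor of polyamine synthesis (-0.39 ± 0.12), and Prdx1 (-0.996 ± 0.23) were lower in KO and Amd1 (0.64 ± 0.19) was higher. The other-cell markers given above also differed between these fibril groups, and their part in these calls was not tested.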

How the data were processed

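Per the labels' protocols, total RNA of cultured microglia was depleted of ribosomal RNA, made into stranded TruSeq libraries and sequenced as single reads. The deposited table holds raw counts per transcript, which the authors made with CASAVA 1.7.1, STAR 2.4.2a and mm10, per the submitters' processing notes; no source used here names the counting program. Of 94647 transcripts, 91320 were matched to GENCODE M21 and their counts summed to 38031 genes; the other 3327 were left out. The fit used edgeR 4.0.16 in R 4.3.3: TMM scaling, filterByExpr (14346 genes), a group-means model over all 30 libraries, the quasi-likelihood test and Benjamini-Hochberg adjustment over all genes, with a call at an adjusted p under 0.05. SE is the log2 fold change over the root of F. The common biological coefficient of variation was 0.294, with 24 residual degrees of freedom. Promoter windows were from RefSeq (GRCm38.p6). Alternatives were RLE scaling, library size only, no filter, DESeq2 1.42.0, only the groups compared, a replicate block, 7 libraries left out, a marker score as covariate, and each library left out. The scripts were tested on simulated data. The 8 genes, the partner and marker lists and the 7 libraries were chosen with earlier results of these data known; leaving out the 7 libraries, the marker covariate, the transcript fit and the list alternatives were chosen after seeing the data. The text names all 8 genes, for each gene the 3 with the highest correlation, in each list up to 3 called genes with the smallest p per comparison described, and all genes of any count up to 5. Some genes of the partner lists are not reported here.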

Additional observations from a re-analysis of the deposited data

Results flagged for a closer look

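In 3 of 48 sets of libraries (8 genes in 6 groups) the most extreme library lay far from the others of its group, and chance alone would do this in about 1 group in 20. Fbxo7 was at 33.9 CPM in KO fibril replicate 5, where the next library had 23.9 CPM, and at 35.5 CPM in KO control replicate 6, where the next had 27.1 CPM. Tmem175 was at 22.9 CPM in KO control replicate 6, where the next library had 27.1 CPM. Both libraries are among the 7 that stand apart.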

How the results depend on the processing

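Over 11 comparisons, none of the calls of the 8 genes changed sign under any alternative. The number of genes called changed by more than 1.5 times as follows. For fibrils against LPS in WT cells it was 2, and 1 with RLE scaling, library size only, no filter, DESeq2, the replicate block or the marker covariate (1 to 2 with each library left out). For KO against WT with fibrils it was 1, and 0 with library size only or the covariate and 2 without the 7 libraries (0 to 2 with each left out). For LPS against control it was 0 in both genotypes, and in KO cells 2 with library size only and 1 without the 7 libraries (0 to 1 with each left out), and in WT cells 5 with library size only. For fibrils against control in WT cells it was 2, and 5 with library size only, with only the groups compared or without the 7 libraries, and 1 with no filter (0 to 3 with each left out). For KO against WT with LPS it was 0, and 1 without the 7 libraries. The cause was not tested. Levels per length were 7.98 TPM (Fbxo7) and 10.8 TPM (Tmem175) with the longest transcript, and 59.3 (Park7), 83.1 (Vps35), 8.60 (Fbxo7) and 8.93 TPM (Tmem175) with merged exons.

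Counts over all genes moved most for KO against WT. With fibrils 1282 genes were called, and 826 with no filter, 1978 with DESeq2, 757 with only the groups compared, 2114 with the block, 2580 without the 7 libraries and 59 with the covariate. The covariate did not overlap between the KO and WT fibril libraries. With LPS 248 were called, and 116, 678, 1097, 125 and 1083 under the same alternatives except the covariate. In controls 46 were called, and 100 with DESeq2, 17 with only the groups compared, 152 without the 7 libraries and 80 with the covariate. Only the groups compared gave 1110 genes for LPS against control in KO cells (1967 in the full fit), 1541 for fibrils against control in KO cells (3402) and 2370 for fibrils against LPS in KO cells (3805). The covariate gave 2269 for fibrils against control in WT cells (4216). In the same comparison 4562 genes were called with library size only, 4871 with only the groups compared and 5845 without the 7 libraries. With library size only, KO against WT gave 1217 calls with fibrils (1027 higher) against 756 higher of 1282, and 183 with LPS (126 higher) against 68 higher of 248. The labels do not say that a replicate number marks a shared culture or day, and 25 of 64 same-numbered pairs had an r over 0.1 (median 0.0531, range -0.519 to 0.655, against a median of -0.00562 for other pairs), so the numbers were not taken to pair the libraries. That 12 of 30 libraries correlated best with one of their own number is a hint from the data, not the design. With the replicate block the Scarb2 call with fibrils in WT cells ended (adjusted p = 0.0526). Fbxo7 and Tmem175 had the fewest counts of the 8 genes, from 231 and 286 in a library.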
